A study of Rattus norvegicus with 6 samples.

Results

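Ppy, Pyy and Npy encode the 3 peptides of the neuropeptide Y family, and they were followed here in pancreatic cells of rats as 3 genes of the 32883 genes in the count tables (Ppy, ENSRNOG00000020874; Pyy, ENSRNOG00000020877; Npy, ENSRNOG00000046449). All 3 were found in the tables by their symbols. Male Wistar rats formed 3 groups of 2: young rats aged 2 months on a normal diet, old rats kept on the normal diet until 20 months of age, and HFHF-old rats given a high-fat, high-fructose (HFHF) diet, with the fructose in the water, over the same 18 months. Islets were isolated with collagenase P and a density gradient, and unique molecular identifiers (UMIs) were counted in single cells by a 10x Genomics 3′ protocol. The libraries held 77387928 to 166875258 UMIs in 78024 barcodes, of which 75201 passed the filters on genes per cell and mitochondrial share.

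Pancreatic polypeptide (Ppy) is the hormone of the PP or gamma cells of the islet, which are most numerous in the part of the pancreas next to the duodenum. Peptide YY (Pyy) is best known from the gut and is also made in islets, and neuropeptide Y (Npy) is a transmitter of sympathetic and central neurons. The peptides are cut from longer precursors, end in an amide group and act on a shared family of Y receptors, where pancreatic polypeptide prefers Y4, encoded by Npy4r.

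Islet cells were barcodes in which at least 10% of UMIs came from Gcg, Ins1, Ins2, Ppy, Pyy and Sst, and they were classed by the most abundant hormone among Gcg, Ins1 + Ins2, Ppy + Pyy and Sst. This gave 8445 islet cells of the 75201 cells. Most other cells carried markers of macrophages (21892), T and NK cells (19314), stromal cells (13561) or acinar cells (3624). Of the islet cells, 499 lay just above the limit at 10 to 12% and 663 more barcodes lay just below it at 8 to 10%. In the order young 1, young 2, old 1, old 2 and HFHF-old 1, there were 128, 432, 82, 632 and 61 PP cells, 470, 574, 124, 713 and 30 Gcg cells, 138, 3105, 436, 1197 and 272 Ins cells and 18, 9, 5, 7 and 3 Sst cells. Values for 5 rats are given in this order throughout. HFHF-old 2, where 9793 of 11716 cells carried T and NK markers, held 6 islet cells and 0 PP cells, which allows a share of up to 0.0256%, so each HFHF-old value for islet cells rests on 1 rat. Because Ppy and Pyy served to class the cells, their levels between classes are descriptions without a test. Immune cells that carried at least 3 UMIs of the immune genes and were no islet cells gave the level of hormone RNA in cells that should lack it, with 8680, 3488, 4061, 6804 and 6725 cells.

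Young 2 stood apart from the other libraries. In its Ins cells, 84.5% of cells had under 80% of the hormone UMIs in the leading hormone, against 0, 5.73, 14.0 and 2.21% in the other rats, and 73.3% held at least 3 immune UMIs, against 9.93 to 15.8%. The immune cells of young 2 held a mean of 10.6 Ppy UMIs, while those of the other 4 rats with PP cells held 0.872 to 2.25. Of the islet cells, 79.4% in young 1, 18.6% in young 2, 33.1% in old 1, 40.5% in old 2 and 71.3% in HFHF-old 1 had at least 20 UMIs over 8 islet marker genes (Chga, Chgb, Scg2, Scgn, Pcsk2, Cpe, Neurod1 and Isl1), a limit set after the data were seen. Values for these cells are therefore given beside several of the levels and shares. Pairs of libraries shared 20 to 69 barcodes, and 0 to 3 among islet cells.

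In the reference annotation, Ppy and Pyy were neighbours on chromosome 10 with 0 annotated genes between them. The 250 bases before the start of each gene (RefSeq, build GRCr8, printed on the gene's strand) are shown because both transcripts were abundant in PP cells, while in Sst cells of 4 of 5 rats Pyy made up most of their sum. Capitals mark the motifs that were searched on both strands, namely the TATA box TATAAA, the homeodomain core TAATTA and the E-box CANNTG, and no matches overlapped. The stretches lie at chr10:87556237-87556486 on the minus strand for Ppy and at chr10:87562471-87562720 on the minus strand for Pyy, both upstream of the transcripts.
Ppy: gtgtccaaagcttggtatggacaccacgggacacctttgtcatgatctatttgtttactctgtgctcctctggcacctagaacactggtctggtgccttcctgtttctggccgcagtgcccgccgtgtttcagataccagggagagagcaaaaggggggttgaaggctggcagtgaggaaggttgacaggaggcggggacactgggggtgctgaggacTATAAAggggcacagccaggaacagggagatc
Pyy: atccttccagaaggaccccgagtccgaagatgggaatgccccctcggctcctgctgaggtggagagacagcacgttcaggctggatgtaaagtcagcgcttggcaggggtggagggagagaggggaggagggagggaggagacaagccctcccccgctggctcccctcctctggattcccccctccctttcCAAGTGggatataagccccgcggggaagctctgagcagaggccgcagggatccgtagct
The Ppy stretch held TATAAA, which began at -32 and occurs in 12.9% of 33469 promoters of this length. The Pyy stretch held CANNTG at -59, which occurs in 65.5% of them, and neither held TAATTA, which occurs in 4.86%. The Npy stretch, at chr4:80211861-80212110 on the plus strand, held none of the 3 motifs.

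PP cells carried most of the Ppy in 5 of 5 rats and most of the Pyy in 4 of 5. They held 94.0, 56.2, 91.9, 88.2 and 86.3% of all Ppy UMIs of their libraries, and 85.2, 49.2, 88.2, 73.9 and 79.1% of all Pyy UMIs. In young 2, where both values were lowest, Ins cells held 37.4% of the Ppy and 42.6% of the Pyy UMIs. A PP cell held a mean of 3528, 2842, 3342, 3570 and 4907 Ppy UMIs, with medians of 2546.5, 465.5, 787.5, 532 and 4638, so the rats differed more in the median than in the mean. Among PP cells with at least 20 islet marker UMIs the means were 3637, 7175, 6053, 8212 and 5480, and young 1 was lowest. Per 1000000 UMIs of the class (CPM), Ppy stood at 264082, 306856, 282854, 448158 and 275799 in PP cells, and old 2 was highest. In the same scale Ppy reached 2583, 12922, 1245, 18283 and 32678 in Gcg cells and 33.2, 28089, 1721, 8784 and 934 in Ins cells, with 137, 1490, 157, 266 and 183 in immune cells. The order of Gcg and Ins cells was not the same in every rat, since Ins cells were above Gcg cells in young 2 and old 1. With at least 20 islet marker UMIs, Ppy stood at 2538, 11980, 1193, 18806 and 32703 CPM in Gcg cells and at 20.4, 19224, 119, 8440 and 936 CPM in Ins cells, so the order in old 1 turned round and young 2 alone had more in Ins cells.

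**Figure D1:**
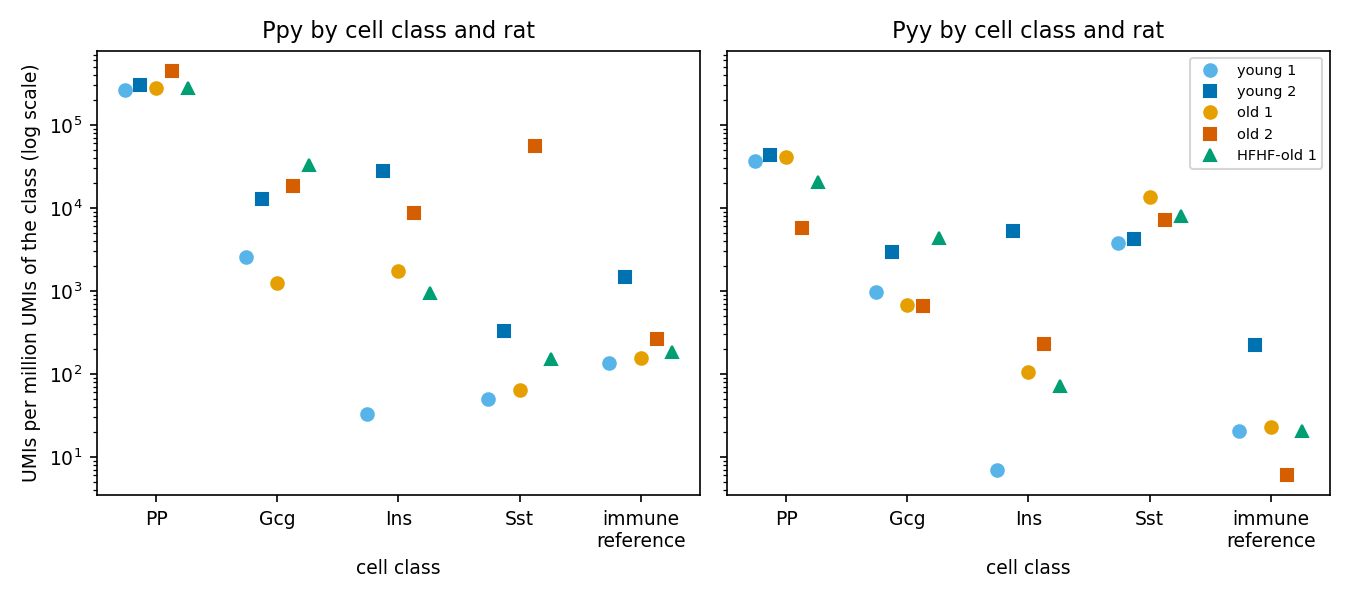
Ppy (left) and Pyy (right) in UMIs per 1000000 UMIs of the class, on a log axis, in 4 islet cell classes and immune reference cells, with 1 point per rat. Ppy was highest in PP cells of each rat, at 264082 to 448158. Pyy lay at 3764 to 13504 in Sst cells and at 5683 to 43841 in PP cells. Within rats it was lower in Sst than in PP cells, such as 3764 against 36848 in young 1, except in old 2 (7204 against 5683).

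Pyy was the less abundant peptide transcript of PP cells and differed more between rats than Ppy. The class rule sets a lower limit on Ppy + Pyy in these cells, most of which was Ppy, and none on Pyy alone. A PP cell held a mean of 492 Pyy UMIs in young 1, 406 in young 2, 481 in old 1, 45.3 in old 2 and 364 in HFHF-old 1. Pyy made up 12.2, 12.5 and 12.6% of the Ppy + Pyy UMIs of PP cells in young 1, young 2 and old 1, whereas it made up 1.25% in old 2 and 6.91% in HFHF-old 1. With at least 20 islet marker UMIs the shares were 12.2, 12.4, 12.8, 1.25 and 6.88%, and the means 507, 1014, 888, 104 and 405 Pyy UMIs. The exact 95% binomial intervals for all PP cells, which cover counting error only, ran from 1.24 to 1.27% in old 2 and from 12.4 to 12.7% in old 1. Thus the 2 old rats, which belong to 1 group, were farther apart than old 1 was from either young rat. In old 2, 29.3% of PP cells held 0 Pyy UMIs, against 0 to 4.92% in the other 4 rats, and its PP cells had the lowest median depth, 1631 UMIs against 2834.5 to 19545. Among PP cells with at least 20 islet marker UMIs, where old 2 had a median depth of 13774 UMIs against 12256 to 20611, the share with 0 Pyy UMIs was 8.46% in old 2 and 0 to 3.70% in the other 4 rats. After thinning to 2000 UMIs per cell, which left 122, 271, 43, 296 and 56 PP cells, the expected share with a Pyy UMI was 98.9, 98.2, 98.2, 75.4 and 87.5%.

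The Pyy share in immune cells of the same library was 13, 13, 12.7, 2.21 and 9.97%, so old 2 was lowest there too, and HFHF-old 1 was again below the young rats and old 1. The part of free RNA in the levels of single cells was not tested. Since UMIs were counted at the 3′ end, no scaling by transcript length was made, and the share compares captured transcripts, not amounts of peptide.

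**Figure D2:**
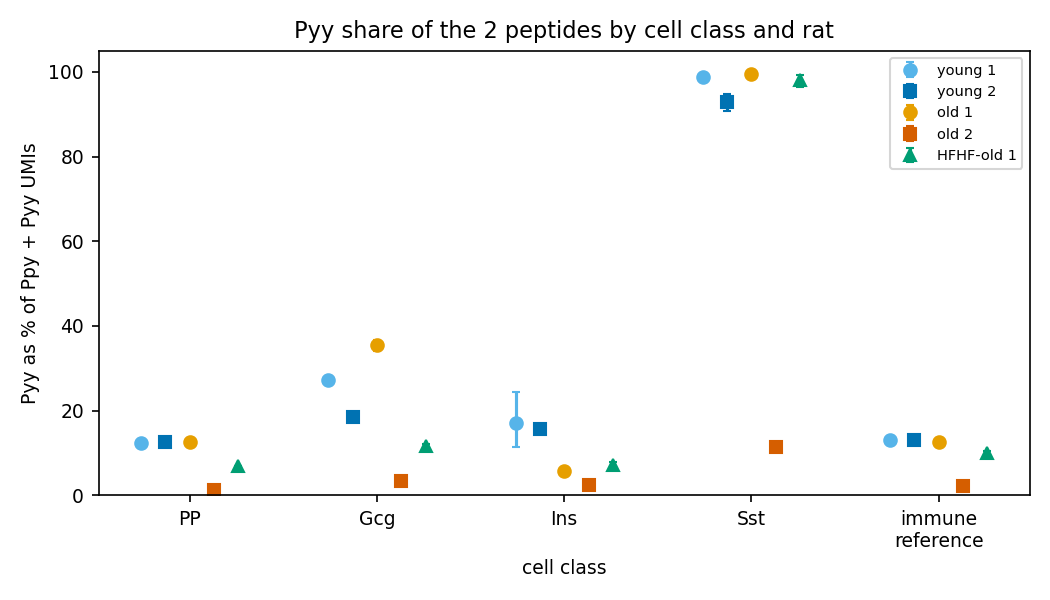
Pyy as a percentage of Ppy + Pyy UMIs by cell class, with 1 point per rat and exact 95% binomial intervals, most of them smaller than the points. In PP cells 3 rats lay at 12.2 to 12.6%, HFHF-old 1 at 6.91% and old 2 at 1.25%, and Sst cells of 4 rats lay at 92.9 to 99.5%.

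Sst cells, which carry the messenger of somatostatin, held Pyy with little Ppy in 4 of 5 rats, while in old 2 a pair of the 7 cells carried most of the Ppy. Their mean was 54.4, 69.6, 210, 135 and 143 Pyy UMIs per cell, on 18, 9, 5, 7 and 3 cells, and the corresponding level of 3764, 4261, 13504, 7204 and 8096 CPM was above that of immune cells, 20.5, 222, 22.8, 6.02 and 20.2 CPM, in 5 of 5 rats. Over the 42 Sst cells the median was 45.0 Pyy UMIs (range 0 to 393) and 1.00 Ppy UMI. Pyy exceeded Ppy in 30 of them. At least 20 Pyy UMIs were present in 28 and at least 20 Ppy UMIs in 3, all from old 2, which held 2867, 4322 and 48 Ppy UMIs. Pyy made up 98.7, 92.9, 99.5 and 98.2% of the Ppy + Pyy UMIs in young 1, young 2, old 1 and HFHF-old 1. In old 2, whose 7 Sst cells included those with 2867 and 4322 Ppy UMIs, it made up 11.5%. Those 2 cells held 7189 of its Ppy UMIs, and in the other 5 cells Pyy made up 90.9% of 530 Pyy and 53 Ppy UMIs. Nearly all of this Pyy lay in cells with 393 and 131 Pyy UMIs. The rest held 6, 0 and 0 Pyy UMIs beside 48, 1 and 1 Ppy UMIs, so Pyy exceeded Ppy in 2 of the 7 cells. The cell with 2867 Ppy UMIs also held 2611 Gcg UMIs, and its 3392 Sst UMIs were close to its sum of Ppy and 319 Pyy UMIs. None of the 42 cells held 3 or more immune UMIs, and their median was 308 islet marker UMIs. In old 2, where PP cells held little Pyy, Sst cells had 7204 CPM of Pyy against 5683 CPM in PP cells, whereas PP cells were higher in the other 4 rats. The class rule limits Ppy + Pyy in Sst cells from above, since a cell with more of them than of Sst would be a PP cell, but it sets no lower limit.

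**Figure D3:**
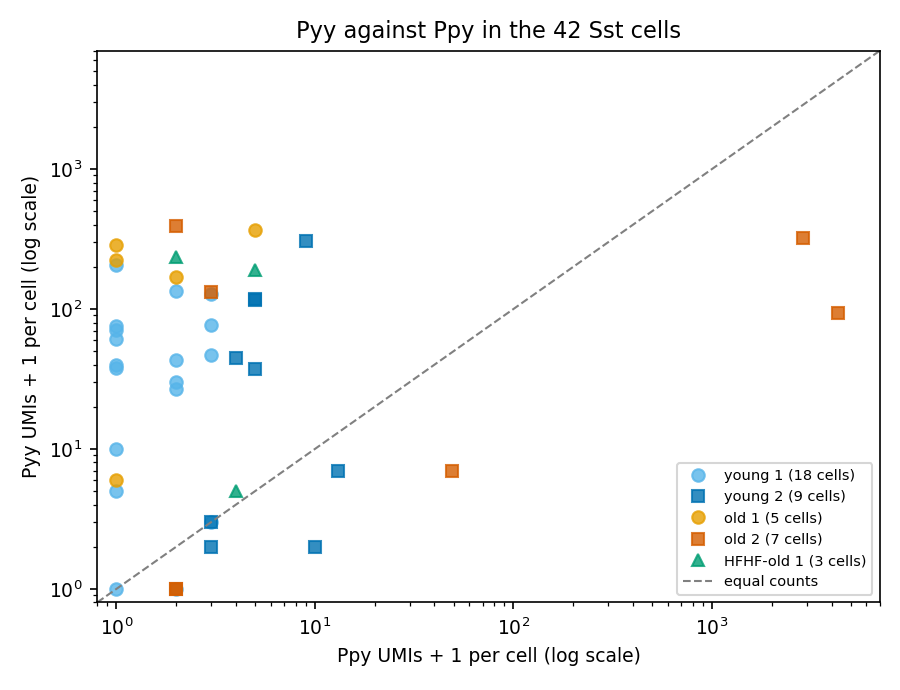
Pyy against Ppy UMIs per cell, each with 1 added, on log axes for the 42 Sst cells, with the rat shown by colour and shape and a dashed line at equal counts. In 30 cells Pyy exceeded Ppy, and the 3 cells with at least 20 Ppy UMIs, all from old 2, lie at the right.

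Among Gcg cells, which carry the messenger of glucagon, the share of cells with a Pyy UMI was above that of immune cells in 5 of 5 rats. At equal depth, the share with a Ppy UMI was close to that of immune cells in 3 of 5. After thinning to 2000 UMIs per cell, the expected share of Gcg cells with a Pyy UMI was 31.6, 62.7, 26.9, 20.4 and 58.0%, against 4.23, 26.4, 5.18, 0.917 and 2.92% of immune cells. For Ppy the shares were 23.7, 74.4, 26.4, 43.4 and 53.9% in Gcg cells and 24.2, 75.3, 26.1, 33.9 and 24.6% in immune cells, so these shares were at background in young 1, young 2 and old 1. With at least 20 islet marker UMIs, the thinned shares of Gcg cells were 31.1, 54.4, 26.8, 20.9 and 58.0% for Pyy and 23.1, 63.0, 25.7, 41.7 and 53.9% for Ppy. The level of Ppy in CPM was above that of immune cells in 5 of 5 rats, as given above. Thinning kept 389, 399, 107, 419 and 29 Gcg cells, and without it 51.7, 83.1, 68.5, 29 and 70% of Gcg cells and 10.6, 52.9, 18.3, 2.12 and 12.4% of immune cells held a Pyy UMI, at median depths of 11296, 4837, 24058, 7093 and 18832 UMIs in Gcg cells and 4888, 5876, 9046, 3622 and 9910 in immune cells. The thinned share of Ins cells with a Pyy UMI was below that of immune cells in young 1, at 1.68%, and above it in the other 4 rats, at 96.3, 40.2, 14.2 and 3.77%. Among Ins cells with at least 20 islet marker UMIs it was 0.877, 87.4, 7.14, 13.7 and 3.45%, so that old 1 came near its immune cells. The levels of most Gcg cells were low, with medians of 1, 9.5, 2, 1 and 5 Ppy UMIs and 1, 3, 1, 0 and 14.5 Pyy UMIs per cell. The class means of 31.1, 141, 28.2, 170 and 636 Ppy UMIs therefore rested on a minority of cells. In young 1, for example, 31 of 470 Gcg cells held at least 20 Ppy UMIs with fewer than 20 Pyy UMIs and 19 held at least 20 of both, against 6 and 1 of 8680 immune cells.

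Some Gcg cells held Pyy without Ppy, as Sst cells did. Among the 1196 Gcg cells with at least 20 islet marker UMIs, 61 held at least 50 Pyy UMIs and fewer than 50 Ppy UMIs, 159 held the reverse, 69 held at least 50 of both and 907 held neither. The cells with Pyy alone numbered 20 of 388, 23 of 275, 8 of 104, 6 of 399 and 4 of 29 in the 5 rats, and so were found in each. HFHF-old 2 added 1 Gcg cell without the pattern. Their median was 87.0, 93.0, 124, 82.5 and 285.5 Pyy UMIs against 1, 8, 1.5, 1.5 and 4 Ppy UMIs. With limits of 20 and 100 UMIs in place of 50, they numbered 99 and 33 of 1196. The same pattern was counted in 9 of 1000 Ins cells, 18 of 39 Sst cells, 0 of 642 PP cells and 0 of 40255 immune cells. Of the immune cells, 10497 came from HFHF-old 2 and held 17 Ppy and 2 Pyy UMIs together. Immune cells had no marker limit and a lower median depth than these Gcg cells. Of the 322 Ins cells of young 2, 247 held at least 50 of both peptides and 32 held Ppy alone, so these could not show the pattern. Of the PP cells with at least 20 islet marker UMIs, 464 held at least 50 of both peptides and 178 held Ppy alone. The Gcg cells with Pyy alone had a median of 20640, 25372, 29802, 24889 and 23236 UMIs, above the 13358, 19373, 25326, 12575 and 14779 UMIs of the Gcg cells with neither. The part of depth or of barcodes with 2 cells was not tested, since no doublet caller was run.

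Outside the islet class, 28 barcodes held at least 50 Pyy UMIs, and 7 of these held fewer than 50 Ppy UMIs. They came from young 1 (4 cells), old 1 (1 cell) and old 2 (2 cells). Among them were 2 cells of young 1 with 1050 and 891 Pyy UMIs beside 1 and 3 Ppy UMIs, 61 and 42 Gcg UMIs and 0 Sst UMIs, in which 8.03 and 9.23% of UMIs came from the 6 hormone genes, just under the limit for islet cells. They held 214 and 141 islet marker UMIs. Another 3 of the 7 held 885 to 1287 Sst UMIs with 99 to 276 Pyy UMIs. All 7 carried at least 76 islet marker UMIs. Among the marker lists for other cell types, ductal markers led in 3 of the 7, including the 2 cells with most Pyy, and neuron markers in 4, including the 3 with Sst.

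Co-detection was counted as Ppy + Pyy at 5% or more of hormone UMIs in Gcg cells, and as Gcg at this level in PP cells. The first was found in 12.1, 36.8, 7.26, 13.6 and 40.0% of Gcg cells, that is 57, 211, 9, 97 and 12 cells, with a mean over rats of 21.9% ± 15.2 (SD, n = 5), or 18.2% ± 14.8 (SD, n = 4) without young 2. Among cells with at least 20 islet marker UMIs it was 7.22, 19.3, 0.962, 13.3 and 41.4%. Of these 5 rats, HFHF-old 1 was highest in both counts, with 12 of 30 and 12 of 29 cells. The exact 95% intervals were 22.7 to 59.4% and 23.5 to 61.1%. With the limit for islet cells at 5% of UMIs in place of 10%, young 2 was at 40.2% and HFHF-old 1 at 40.0%. HFHF-old 1 was the only HFHF-old rat with at least 10 Gcg cells, and its difference from the other rats was not tested. HFHF-old 2 held 2 Gcg cells, 1 of them with Ppy + Pyy at this level. At least 3 immune UMIs were present in 10, 22.1, 6.45, 8.56 and 20% of all Gcg cells, so HFHF-old 1 and young 2 were highest in this too. They were present in 14.0, 23.2, 0, 11.3 and 8.33% of the Gcg cells with Ppy + Pyy at 5%. For the other Gcg cells this was 9.44, 21.5, 6.96, 8.12 and 27.8%, so the direction differed between rats. In HFHF-old 1 these were 1 of 12 and 5 of 18 cells. Median depth was 2584, 2290, 765, 6429 and 19460.5 UMIs in Gcg cells with Ppy + Pyy at 5%. It was 11822, 12510, 24714, 7181.5 and 15433.5 UMIs in the others. The part of depth or of mixed barcodes was not tested. The old rats lay on both sides of young 1, so young and old rats overlapped. An exact permutation test of 2 young against 2 old rats cannot give a p below 0.33.

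Gcg reached 5% of hormone UMIs in 7.03, 50.7, 6.1, 13.6 and 8.20% of PP cells, with a mean of 17.1% ± 19.0 (SD, n = 5) that fell to 8.73% ± 3.36 (SD, n = 4) without young 2. In PP cells with at least 20 islet marker UMIs it was 6.45, 18.8, 4.55, 6.54 and 9.26%, so young 2 stayed highest. Insulin, set beside these as another second hormone, reached 5% in 6.60, 47.6, 13.7, 8.56 and 3.33% of Gcg cells. Among Gcg cells with at least 20 islet marker UMIs this fell to 2.32, 6.18, 0.962, 2.51 and 0%, the last on 29 cells with an exact 95% upper limit of 11.9%. The difference between both second hormones was not tested. Ppy + Pyy reached 5% in 0.725, 86.8, 6.19, 16.6 and 3.31% of Ins cells, and with at least 20 islet marker UMIs in 0, 78.3, 1.61, 8.99 and 0.571%, the first on 71 cells with an upper limit of 5.06%.

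**Figure D4:**
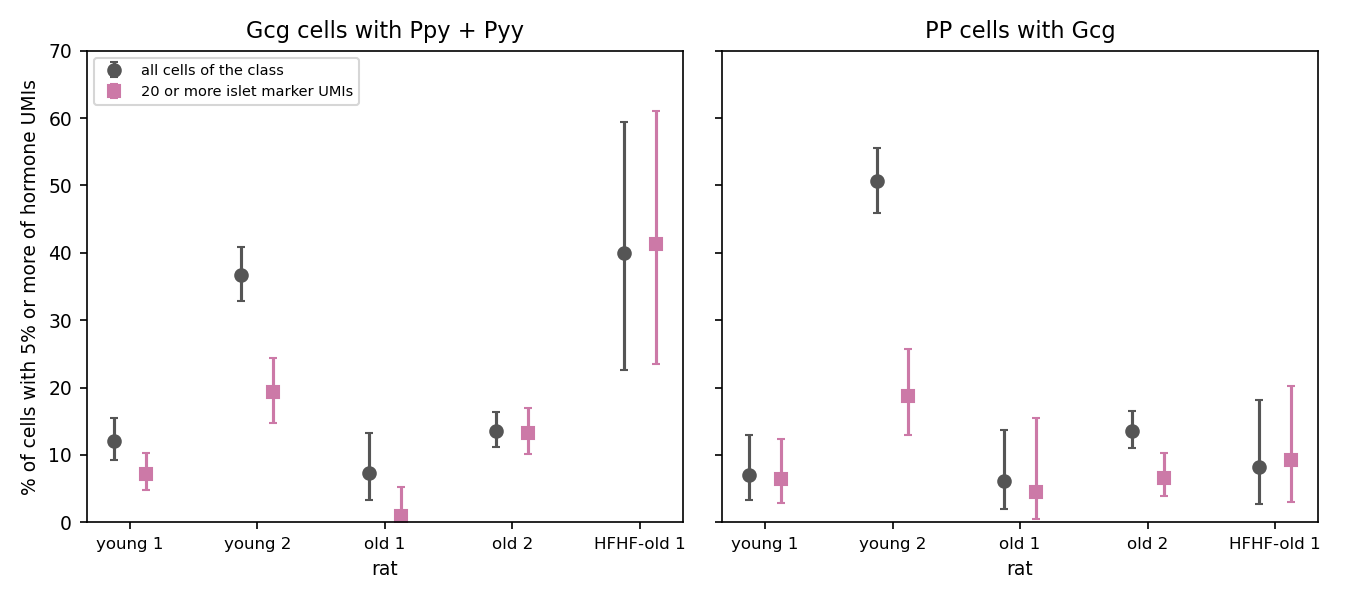
Percentage of Gcg cells with Ppy + Pyy (left) and of PP cells with Gcg (right) at 5% or more of hormone UMIs, by rat, with exact 95% binomial intervals, for all cells and for cells with at least 20 islet marker UMIs. Young 2 fell from 36.8 to 19.3% and from 50.7 to 18.8% with the marker limit, and HFHF-old 1 stayed at 40.0 and 41.4% of Gcg cells.

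The share of PP cells among islet cells was 17.0, 10.5, 12.7, 24.8 and 16.7%, so the old rats lay on both sides of young 1 and HFHF-old 1, and young 2 was lowest. Among islet cells with at least 20 islet marker UMIs it was 20.7, 20.9, 20.6, 25.2 and 20.7%, so young 2 was no longer lowest and 4 of 5 rats lay within 20.6 to 20.9%. These were 124 of 599, 160 of 766, 44 of 214, 260 of 1033 and 54 of 261 cells. The marker limit removed classes unequally. In old 1 it kept 44 of 82 PP cells and 62 of 436 Ins cells. Islet isolation, the 10% limit and the marker limit can set these shares, and they were not tested between groups. UMIs summed per rat and class were compared between groups with edgeR's quasi-likelihood test, in 1 fit of the 5 rats per class with 2 residual degrees of freedom. Calls needed a change of over 1.5-fold in either direction and a p, adjusted after Benjamini and Hochberg for all genes tested, under 0.05. The lone HFHF-old rat was assumed to vary like the others.

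Neither Ppy nor Pyy was called between groups in any class. The class rule limits these tests, since Ppy + Pyy had to lead in PP cells and stay below the leading hormone in other classes. A change that moved cells between classes could be missed. In PP cells of old against young rats, where 0.0184% of the 10884 genes tested were called, the log2 fold change was 0.55 (SE 0.96, adjusted p = 1.00) for Ppy and -0.88 (SE 0.91, adjusted p = 1.00) for Pyy. For Pyy the young rats stood at 36848 and 43841 CPM and the old rats at 40738 and 5683 CPM, so the groups overlapped and the difference rested on old 2. It was -0.14 without old 2, and without young 2 the differences were 0.87 for Ppy and -0.53 for Pyy, neither called. In PP cells of HFHF-old against old rats, with 0.0184% of genes called, the log2 fold change was -0.92 (SE 1.23, adjusted p = 0.855) for Ppy and -0.43 (SE 1.12, adjusted p = 0.931) for Pyy. HFHF-old 1, at 20463 CPM of Pyy, lay between both old rats, and the value turned to 1.10 without old 1.

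In Gcg cells of old against young rats, 0.0232% of 12949 genes were called, and edgeR gave a log2 fold change of 0.62 (SE 1.22, adjusted p = 1.00) for Ppy and -1.29 (SE 0.70, adjusted p = 1.00) for Pyy. Pyy stood at 961 and 2954 CPM in Gcg cells of young rats and at 682 and 662 CPM in those of old rats, so the groups did not overlap in CPM. After TMM scaling, with factors of 1.26, 0.905, 0.863, 0.772 and 1.32 for the 5 rats, Pyy stood at 766, 3271, 791, 859 and 3304, so young 1 fell below both old rats and the groups overlapped. Without young 2 the fitted difference turned to 0.11 for Pyy and was 2.61 for Ppy, neither called. For HFHF-old against old rats, with 0.0386% of genes called, the difference was 0.98 (SE 1.45, adjusted p = 0.818) for Ppy and 2.00 (SE 0.81, adjusted p = 0.59) for Pyy, at 4355 CPM of Pyy in the 30 Gcg cells of HFHF-old 1. With the replicate number as a replicate block, which left 1 residual degree of freedom, edgeR gave 3.76 (adjusted p = 1.1e-04) for Ppy and 2.47 (adjusted p = 0.0369) for Pyy. These were the only alternatives in which the members were called in Gcg cells, and nothing in the labels says that the numbers pair the rats.

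In Ins cells 0.0% of 12786 genes were called by edgeR in either comparison, with 262 genes at an unadjusted p under 0.05 in old against young rats and 120 when HFHF-old 1 was set against old rats, and DESeq2 called 12 and 5 genes. The log2 fold change of old against young rats was -0.95 (SE 2.43, adjusted p = 1.00) for Ppy and -3.50 (SE 2.27, adjusted p = 1.00) for Pyy, and without young 2 they turned to 7.31 and 4.59. Without young 1, which left young 2 as the lone young rat, Pyy was called at -4.48 (adjusted p = 0.0480). For HFHF-old against old rats the differences were -3.27 (SE 3.52) for Ppy and -1.99 (SE 2.79) for Pyy, both with an adjusted p of 0.990.

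Npy was rarely detected. Of the 75201 cells, 12 held an Npy UMI, with 1 UMI each, and no class passed the filter on low counts, so Npy was not tested. In islet cells there were 3 UMIs, 1 in an Ins cell of old 1 and 2 in Ins cells of old 2, and 0 in Gcg, PP and Sst cells. A count of 0 in islet cells, with 3 counts as the limit, allows up to 0.270 CPM in young 1, 0.0760 CPM in young 2 and 0.347 CPM in HFHF-old 1. The other UMIs lay in cells with smooth muscle markers of old 2 (6 UMIs), in endothelial cells of young 1 and old 2 (1 UMI each) and in a stromal cell of young 1 (1 UMI). The 379 cells of old 2 with smooth muscle markers thus held 8.23 CPM of Npy, while the 261 such cells of young 1 held 0 UMIs, which allows up to 1.67 CPM, and the 149 of young 2 held 0, which allows up to 2.92 CPM. The 21, 8 and 2 such cells of old 1, HFHF-old 1 and HFHF-old 2 held 0 UMIs as well, but at limits of 20.1, 50.4 and 176 CPM a level like that of old 2 was not detectable.

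Receptor transcripts of the family were sparse in islet cells. Npy1r, which encodes Y1, had 1877 UMIs in all, of which 1573 lay in 820 cells with smooth muscle markers and 129 in islet cells. It stood at 521, 349, 321, 255 and 638 CPM in the smooth muscle cells of the 5 rats, on 261, 149, 21, 379 and 8 cells, and at 410 CPM in 2 cells of HFHF-old 2. In PP cells it was at 4.68, 1.00, 0, 0.397 and 0 CPM, on 8, 4, 0, 2 and 0 UMIs, which in no rat was above the 4.81, 2.30, 0.0718, 1.08 and 0.157 CPM of immune cells. In Ins cells it was at 0, 3.03, 0.169, 0.558 and 0 CPM, on 0, 88, 1, 10 and 0 UMIs, so most of its islet UMIs lay in Ins cells of young 2. That rat and old 1, with 1 UMI, were above their immune cells. Npy2r, Npy4r and Npy5r, the genes of Y2, Y4 and Y5, had 3, 1 and 8 UMIs in all 75201 cells. Of the 4 receptor genes, only Npy1r in Ins cells could be tested between groups, and it was not called in either comparison. The log2 fold change was -1.66 (SE 1.46, adjusted p = 0.999 by edgeR) for old against young rats. It was -5.71 (SE 3.65) for HFHF-old 1 against old rats. These tests could decide little, since young 2 held 88 of the UMIs in Ins cells and HFHF-old 1 held 0.

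The enzymes that process the precursors were not used to class the cells and were compared between classes with the rat as a block. Pcsk1, the prohormone convertase PC1/3, was higher in PP than in Gcg cells, with 74.3, 71.7, 117, 43.9 and 97.7 CPM in PP cells and 7.41, 4.63, 1.78, 6.80 and 5.14 CPM in Gcg cells. The classes did not overlap, and the levels in Gcg cells, on 42, 29, 5, 45 and 3 UMIs, were above the 3.00, 3.38, 1.78 and 3.92 CPM of immune cells in 4 rats and below their 6.1 CPM in old 1. The log2 fold change was 3.74 (SE 0.51, adjusted p = 6.8e-04 by edgeR), and 7.1% of 11892 genes were called in this comparison. Pcsk1 was called in 15 of 15 alternatives, at 3.50 to 4.41, and stood at 3.63 without young 2. Gcg cells were also below Ins cells by a log2 fold change of -6.33 (SE 0.54, adjusted p = 1.1e-05), where 25.6% of genes were called. In Sst cells, which entered no test, Pcsk1 stood at 103 to 453 CPM.

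Pam, which forms the amide at the end of these peptides, was also higher in PP than in Gcg cells. It stood at 1372, 995, 1393, 640 and 1451 CPM in PP cells and at 754, 440, 574, 420 and 725 CPM in Gcg cells, so it was higher in PP cells of 5 of 5 rats. The log2 fold change was 0.95 (SE 0.21, adjusted p = 0.0128 by edgeR). It was 0.88 without young 2 (adjusted p = 0.0019). It kept its direction in 15 alternatives and its call in 12, and was not called without the block for rats (adjusted p = 0.0907), without old 1 (0.0662) or without HFHF-old 1 (0.0568). Pcsk2, the convertase PC2, was not called between PP and Gcg cells (-0.43, SE 0.28, adjusted p = 0.460), and was higher in Gcg than in Ins cells by 0.82 (SE 0.29, adjusted p = 0.0429), a call held in 8 of 15 alternatives.

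**Figure D5:**
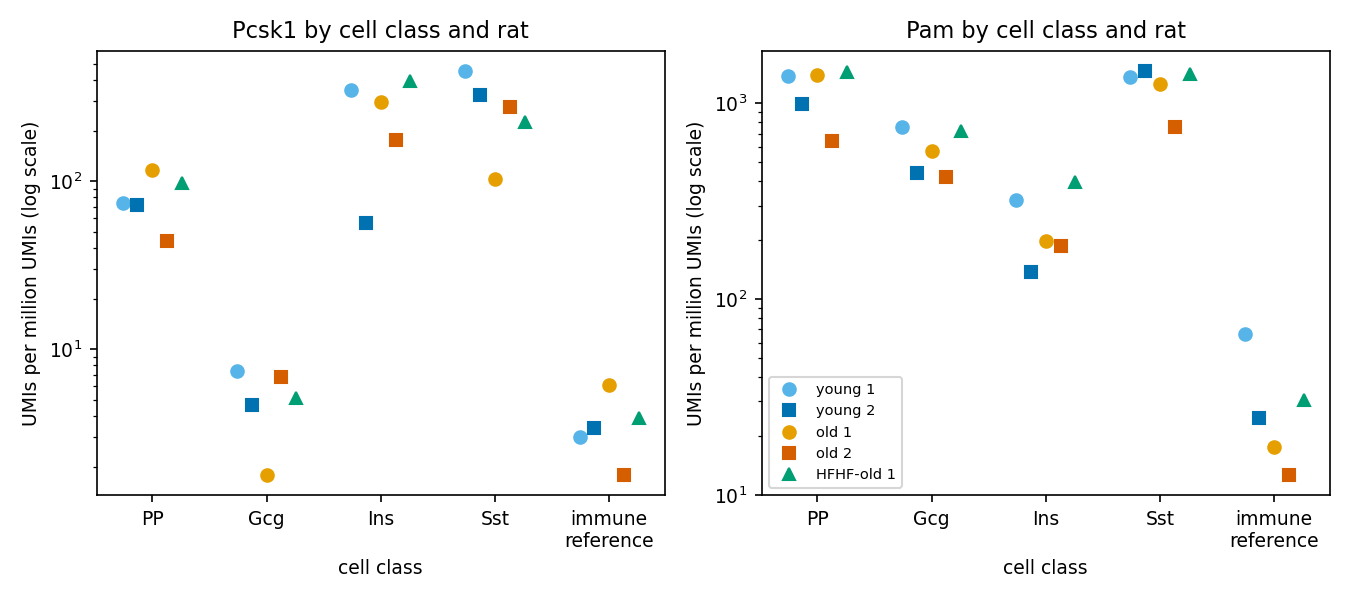
Pcsk1 (left) and Pam (right) in UMIs per 1000000 UMIs of the class, on log axes, by cell class, with 1 point per rat. Pcsk1 lay at 43.9 to 117 CPM in PP cells and at 1.78 to 7.41 CPM in Gcg cells, and Pam lay at 640 to 1451 and 420 to 754 CPM.

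Of the 6 processing genes, 5 passed the filter between PP and Gcg cells. Of these, 2 were called higher in PP cells and 0 lower, where 7.1% of all genes tested were called. The median log2 fold change of the 5 was -0.18, against -0.01 over all genes tested. The others were Cpe, a carboxypeptidase that trims the cut ends (-0.21, SE 0.28, adjusted p = 0.771), and Scg5, the chaperone of PC2 (-0.18, SE 0.17, adjusted p = 0.656). Pcsk1n, an inhibitor of PC1/3, stood at 0 to 1.99 CPM in PP cells and did not pass. Between Gcg and Ins cells, where 25.6% of all genes tested were called, 1 of the 5 was higher, Pcsk2, and 1 lower, Pcsk1. Scg5 was at 0.58 (SE 0.17, adjusted p = 0.0222 by edgeR), just inside the limit on the fold change. Of the 5 peptidases that cut such peptides, 2 passed the filter in each of these comparisons and 0 were called. Dpp4, which cuts the ends of Pyy and Npy, was at 3.10 to 7.60 CPM in PP cells and 15.7 to 46.5 CPM in immune cells, and its log2 fold change of PP against Gcg cells was -0.82 (SE 0.46, adjusted p = 0.378). The second, Xpnpep1, was at -0.44 (SE 0.21, adjusted p = 0.279). Fap, Mme and Xpnpep2 did not pass. In the 6 comparisons between groups, where 0.0 to 0.0386% of all genes tested were called, 0 of the 5 processing genes and 0 of the 2 or 3 peptidases tested were called.

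The genes whose levels were most like those of the members were sought over 16 class sums of single rats, among 2075 genes with a mean of at least 50 CPM, as a description on the log2(CPM + 1) scale. The sums share libraries and depth, and 1 of them, from young 1, was of Sst cells. For Ppy the leading ones were Agt (Pearson r = 0.91), Aga, LOC100910200, Maged2 and Npc2 (r = 0.81). Agt, which encodes angiotensinogen, stood at a mean of 262 CPM in PP, 39.3 in Gcg and 7.80 in Ins cells. For Pyy the most alike genes were Bsg (r = 0.94), Jtb, Itm2c, Sdcbp, Atp6ap1 and Emc10 (r = 0.91). Bsg, the membrane glycoprotein basigin, stood at a mean of 1272 CPM in PP, 576 in Gcg and 268 in Ins cells, and at 707 CPM in the Sst cells of young 1. Npy, with too few UMIs, gave no such list.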

How the data were processed

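The authors prepared single-cell libraries from isolated islets of 6 rats, and the deposited values are UMI counts in matrices that Cell Ranger had filtered to cells. The file headers name version 5.0.0, and per the labels the build was Rnor_6.0. The study's filters (at least 200 genes, at most 25% mitochondrial UMIs, and not among the 1% of barcodes with most genes) were applied with the last limit pooled over all libraries. They took out 2823 of 78024 barcodes, more than the paper reports, so the cell set differs from that of the paper. No doublet caller was run. Libraries held 77387928 to 166875258 UMIs. Immune reference cells had at least 3 UMIs over Ptprc, Cd3e, Cd3g, Cd2, Cd7, Nkg7, Prf1 and Lcp1. Rats with at least 10 cells of a class entered its sums, which went into edgeR 4.0.16 (quasi-likelihood test after TMM scaling and filterByExpr), for groups in 1 fit without covariates and for classes with the rat as a block. SE was taken from the fold change and its F statistic. DESeq2 1.42.0, other scalings, filters, class limits, subtraction of free RNA and leaving out each rat were alternatives. In simulated counts of PP cells for old against young rats (10150 genes in the fit), 72.5% of 200 genes changed by a log2 fold of 2 were recovered, and 100% of those changed by 4 (10242 genes). Unchanged genes called numbered 5 and 8. The simulation gave all genes the same dispersion and changed only genes above a limit on the mean count. Its rates were thus not measured for the spread of Ppy (SE 0.96) and Pyy (SE 0.91). p-values between groups were set against the spread between rats, which edgeR estimated for each gene with help from all genes. p-values between classes were set against the spread of class differences within rats. Shares and their intervals cover counting error only. The members, the lists of 15 pathway genes and the rules were chosen with earlier results of these data known. Named genes were the members, the listed genes and the 6 genes most alike each member, of which 1 is not reported here. Npy passed no filter on low counts, so its tests between classes were not made. The replicate numbers were not taken to pair the rats: with 2 pairs, the deviations of equally numbered young and old rats correlated at 0.13 in Gcg, -0.39 in Ins and 0.32 in PP cells. Promoter sequences are from RefSeq (GRCr8), a later build than that of the counts, and protein sequences were not used here.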

Additional observations from a re-analysis of the deposited data

How the results depend on the processing

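Each group had 2 rats, and only 1 HFHF-old rat had at least 10 islet cells. The depth of islet cells and single libraries also limited the comparisons. Values of Ppy and Pyy between groups kept their direction and stayed uncalled in 165 of 178 alternatives. Leaving out 1 rat at a time moved the log2 fold change of old against young over -2.50 to 2.61 (Ppy) and -1.99 to 0.11 (Pyy) in Gcg cells, -2.51 to 7.31 and -4.48 to 4.59 in Ins cells, and -0.17 to 1.07 and -2.41 to -0.14 in PP cells. For HFHF-old against old the ranges were 0.05 to 4.11 and 1.93 to 2.07 in Gcg cells, -4.01 to -1.71 and -2.42 to -1.38 in Ins cells, and -1.45 to -0.21 and -1.17 to 1.10 in PP cells. Without HFHF-old replicate 1 no such value exists. Ppy in Gcg cells, old against young, turned to -0.0413 where the most abundant hormone held 80% of hormone UMIs. The replicate block gave 3.76 for Ppy and 2.47 for Pyy in Gcg cells of HFHF-old against old rats, both called, and turned Ppy in Ins cells of old against young rats to 2.24. It changed no other call of a member. The causes were not tested.

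Counts of genes called moved as follows, for old against young and then HFHF-old against old. DESeq2 called 23 and 34 in Gcg, 12 and 5 in Ins, and 9 and 13 in PP cells. Without the filter on low counts edgeR called 148 and 140, 94 and 48, and 84 and 106. The replicate block gave 70 and 24 in Gcg cells and 0 in PP cells of HFHF-old against old rats. The crossed pairing of the old rats, added after the data were seen, gave 27 and 21 genes in Ins cells and turned Ppy of old against young rats to 2.23. Islet cells at 20% gave 8 in Gcg (old against young) and 5 and 4 in PP cells, those at 5% gave 3 in Gcg cells (HFHF-old against old), and the 80% limit gave 1 in Ins cells (HFHF-old against old) and 1347 for PP against Gcg cells. Without the rat block 410 genes were called for PP against Gcg and 1698 for Gcg against Ins cells. Leaving out 1 rat gave 2 to 145 and 38 to 104 in Gcg, 0 to 515 and 1 to 5 in Ins, 2 to 125 and 23 to 171 in PP cells, 483 to 1091 for PP against Gcg and 2055 to 2976 for Gcg against Ins cells. The mean share of Gcg cells with Ppy + Pyy ran from 17.4 to 25.6% and that of PP cells with Gcg from 8.73 to 19.9% on leaving out 1 rat. These shares also depended on the limit. At 20% of hormone UMIs in place of 5%, they were 1.70, 15.2, 3.23, 5.61 and 23.3% of Gcg cells in the 5 rats. For PP cells with Gcg they were 4.69, 25.5, 2.44, 5.85 and 8.20%. Fits of Npy between classes were not run, since it passed no filter.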
